A study of Caenorhabditis elegans with 2 samples.

Results

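The small subunit of the cytosolic ribosome was examined through its protein genes in a map of transcription factor sites in Caenorhabditis elegans. The members are the protein-coding genes whose RefSeq or Ensembl symbol is rps- with a number and an optional letter, together with rpsa-1 and fau-1. They number 32 of 19973 protein-coding genes, and none was chosen on a measured value. Both annotations list all of them, but 5 carry different names in the 2 sources. RefSeq's rpsa-1, rps-3A, rps-15A, fau-1 and rps-27A are rps-0, rps-1, rps-22, rps-30 and ubl-1 in Ensembl, and RefSeq names are used here.

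The map came from chromatin immunoprecipitation and sequencing (ChIP-seq) of whole larvae at L4, the last stage before adulthood, in 1 group of 2 biological replicates. Both were strain OP355, which carries the unc-119(tm4063) mutation on chromosome III and the integrated transgene wgIs355, and males and females were pooled. Library fragments ran from 150 to 350 bp. The labels disagree on the tagged protein: the description names an eGFP fusion of ZK337.2, which RefSeq calls klu-1, while the antibody and strain fields name mdl-1, so it is called the tagged factor here. All libraries carry the same mutation and transgene, and no untagged or untreated group was analysed here. Whole animals hold many cell types, so the share of cells with an occupied site and the occupancy per cell cannot be told apart.

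The small subunit binds messenger RNA and reads its codons, and its proteins fold around the 18S ribosomal RNA into a head and a body. They are made in equal amounts with those of the large subunit, which carries out peptide bond formation, and their genes are among the most highly transcribed in growing tissue. MDL-1, which the antibody and strain fields name, is the worm relative of the Mad proteins. These helix-loop-helix factors pair with Max-like partners on the E-box CACGTG. In other animals Myc, which uses the same partners, drives ribosomal protein genes. The labels do not settle whether MDL-1 is the tagged factor.

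The stretches below lie under summits on which the results turn, each 60 bp to either side of the strongest summit, read 5′ to 3′ toward the gene from the ce11 (WBcel235) sequence in RefSeq. The first 3 are the 2 strongest summits and a summit whose replicates disagreed, the next 3 share a 13-base element, and the last 2 share a 12-base element. Capitals mark CGCAGC or its reverse complement, GAGAGA or its reverse complement (rps-3A), GGCCTA in reverse (rps-23), and the 2 elements described with the sequence matches.
rps-12 (III:5679065-5679185, plus strand): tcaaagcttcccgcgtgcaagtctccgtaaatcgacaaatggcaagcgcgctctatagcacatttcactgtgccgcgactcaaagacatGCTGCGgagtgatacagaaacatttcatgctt
rps-3A (III:4475594-4475714, plus strand): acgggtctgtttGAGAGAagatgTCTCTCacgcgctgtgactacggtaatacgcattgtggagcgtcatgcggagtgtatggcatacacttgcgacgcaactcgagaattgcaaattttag
rps-21 (III:7189891-7190011, minus strand): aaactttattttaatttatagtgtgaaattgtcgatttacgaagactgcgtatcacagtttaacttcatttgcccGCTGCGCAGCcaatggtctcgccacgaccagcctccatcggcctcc
rps-3 (III:6206397-6206517, plus strand): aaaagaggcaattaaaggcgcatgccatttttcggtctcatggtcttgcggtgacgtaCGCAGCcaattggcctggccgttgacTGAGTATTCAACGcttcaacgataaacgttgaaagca
rpsa-1 (III:4754300-4754420, minus strand): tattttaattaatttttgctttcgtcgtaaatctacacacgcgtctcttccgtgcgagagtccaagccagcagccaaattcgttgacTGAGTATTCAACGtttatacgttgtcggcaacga
rps-24 (IV:385540-385660, plus strand): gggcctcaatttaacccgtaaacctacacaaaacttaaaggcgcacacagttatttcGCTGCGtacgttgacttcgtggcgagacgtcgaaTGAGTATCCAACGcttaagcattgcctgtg
rps-13 (III:6375130-6375250, minus strand): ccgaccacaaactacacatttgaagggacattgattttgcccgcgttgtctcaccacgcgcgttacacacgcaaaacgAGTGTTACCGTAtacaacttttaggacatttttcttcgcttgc
rps-23 (IV:12391291-12391411, minus strand): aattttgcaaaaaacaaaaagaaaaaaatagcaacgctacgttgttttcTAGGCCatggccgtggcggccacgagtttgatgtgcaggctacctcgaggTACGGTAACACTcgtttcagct

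A member was called bound where a summit of the list that passed the authors' test of agreement between replicates (irreproducible discovery rate, IDR) fell in its start window, which reaches from 1000 bp before the annotated start to 200 bp past it. By that rule 20 of the 32 small-subunit genes (62.5%) were bound, against 10.9% of all protein-coding genes. In the list called on both replicates together, which is longer, 31 of 32 (96.9%) had a summit in the window, against 38.9%. Replicate 1's own list gave 31 of 32 against a background of 40.6%, and replicate 2's gave 30 of 32 (93.8%) against 39.7%. With each replicate cut to as many of its strongest peaks as the 4293 of the IDR list, 22 members (68.8%) were bound in replicate 1 against 10.6%, and 16 (50%) in replicate 2 against 10.7%. Of the members, 15 were in both of these strongest lists and 23 in at least 1. No p-value is attached to these shares, since the members were listed with earlier results of these data known.

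**Figure D1:**
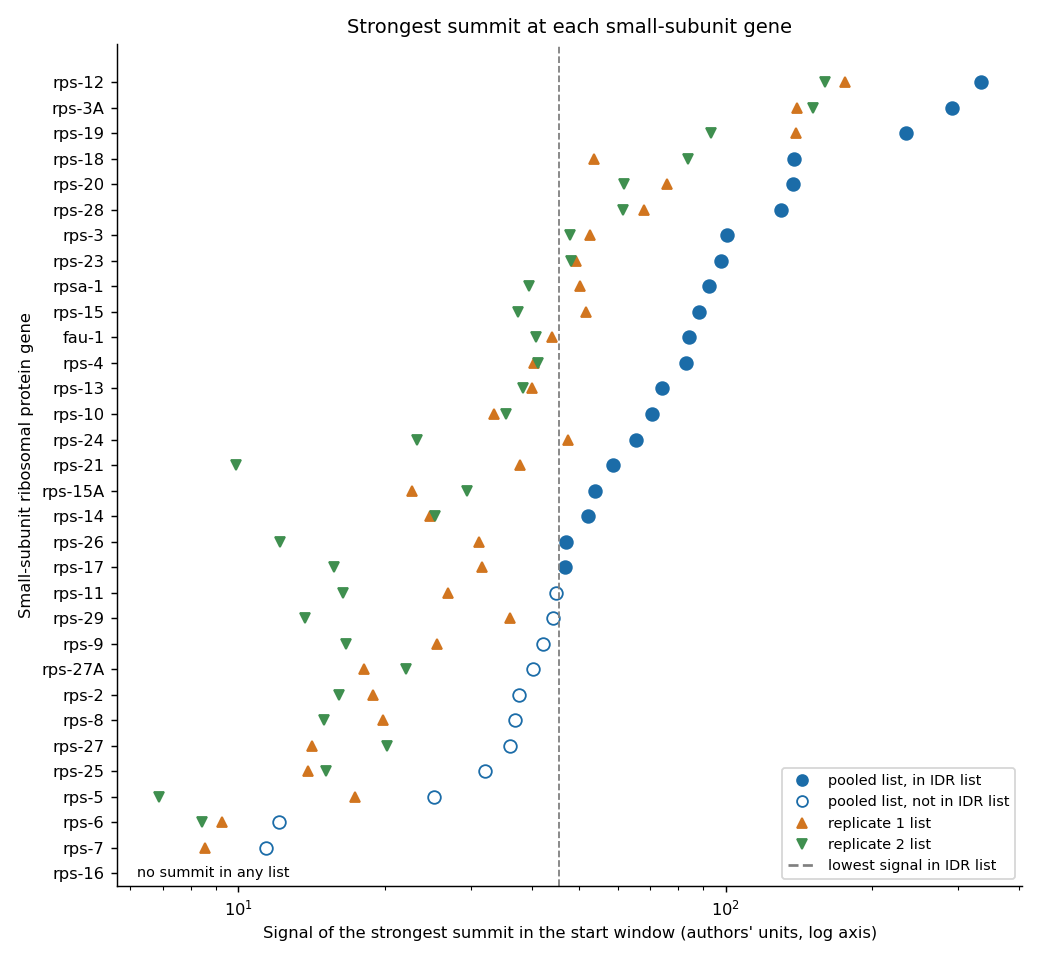
Signal (authors' units, log axis) of the strongest summit in the start window of each of the 32 small-subunit genes, from the pooled list (circles, filled where the summit is in the IDR list) and from each replicate's own list (triangles). The dashed line is the lowest signal in the IDR list, 45.6; rps-12, rps-3A and rps-19 stand highest in all 3 lists and rps-16 has no summit.

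The signal quoted for a peak is the value the authors' peak caller gave it. It is larger in the pooled list than in a single replicate's list, so levels are compared only within a list. Among proteins of the head, 9 of 14 genes were bound. The strongest was rps-12, whose product acts in cell competition in Drosophila. Its summit had a signal of 334 in the pooled list, 176 in replicate 1 and 160 in replicate 2, and lay 173 bp upstream of the start (gene at III:5679298-5680187). Its pooled signal was above that of 99.6% of all protein-coding windows, those without a summit counted as lower. For rps-19, the gene most often mutated in human Diamond-Blackfan anaemia, the signal was 234 pooled, 140 in replicate 1 and 93.2 in replicate 2, at 288 bp upstream.

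The next head genes stood close together. For rps-18, whose protein takes part in the contact with the large subunit, the signal was 138 pooled, 53.7 in replicate 1 and 83.6 in replicate 2, at 549 bp upstream, the farthest of the bound members. The summit of rps-20 had 137 pooled, 75.9 in replicate 1 and 61.8 in replicate 2, at 266 bp. The summit of rps-28, a small protein near the exit of the messenger RNA, had 130 pooled, 67.8 in replicate 1 and 61.7 in replicate 2, at 449 bp. The order of these 3 genes was not the same in the replicates: replicate 1 put rps-18 last of them while replicate 2 put it first.

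The other bound head genes were lower. For rps-3, which lines the entry of the messenger RNA channel, the signal was 101 pooled, 52.8 in replicate 1 and 47.9 in replicate 2, at 346 bp upstream. For rps-15, whose tail reaches toward the decoding site, it was 88.4 pooled, 51.7 and 37.4 in replicates 1 and 2, at 361 bp. For rps-10, a target of ribosome quality control ubiquitin ligases in mammals, it was 70.6 pooled, 33.5 and 35.4 in the replicates, at 382 bp. The weakest was rps-17 with 46.8 pooled, 31.7 in replicate 1 and 15.7 in replicate 2, at 273 bp, just inside the IDR list.

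Among proteins of the body, 11 of 18 genes were bound. The strongest was rps-3A (III:4475918-4476876), whose protein sits on the platform beside the exit of the messenger RNA. Its signal was 292 pooled, 140 in replicate 1 and 151 in replicate 2, at 264 bp upstream. Together with rps-12 and rps-19 it stood above all other small-subunit genes in both replicates: the lowest value of the 3 was 93.2, and the highest among the rest was 83.6. The order among these 3 was the same in both replicates, with rps-12 first, then rps-3A and rps-19. The gap between the last 2 differed: they were nearly level in replicate 1, at 139.9 and 139.7. In replicate 2 they were apart, at 151 and 93.2. The peaks of rps-12, rps-3A, rps-19, rps-18 and rps-20 were 177 to 249 bp long, and those of the other bound members were all 396 bp.

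A middle group of body genes had replicate values near each other. The signal of rps-23, whose protein forms part of the decoding centre, was 97.9 pooled, 49.2 and 48.2 in replicates 1 and 2, at 298 bp upstream. For rpsa-1, known in mammals also as the laminin receptor, it was 92.3 pooled, 50.2 and 39.4 in the replicates, at 309 bp. For fau-1, whose mammalian form is made as a fusion with a ubiquitin-like protein, it was 84.0 pooled, 44.1 and 40.7, at 290 bp. The values for rps-4 were 82.8 pooled, 40.5 and 41.2, at 318 bp. For rps-13, which contacts the large subunit, they were 73.9 pooled, 40.1 and 38.4, at 193 bp. In the replicate lists these 5 genes spanned 40.1 to 50.2 and 38.4 to 48.2, ranges narrow beside the spread between replicates over all members given below, so their order is not resolved.

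The remaining bound body genes were weaker and several were uneven. For rps-24 the signal was 65.5 pooled at 287 bp upstream, with a second IDR summit of 54.1 at 555 bp. It was the one member with 2 IDR summits. Both replicates listed the nearer site, replicate 1 with 39.7 at 302 bp and replicate 2 with 23.3 at 322 bp. Replicate 1 was strongest at the farther site, with 47.6 at 535 bp, where replicate 2's list had no summit. For rps-21 the signal was 58.8 pooled, 37.8 in replicate 1 and 9.91 in replicate 2, at 320 bp. This was the largest ratio between replicates of any member. The summit of rps-15A had 53.9 pooled, 22.8 and 29.5 in the replicates, at 121 bp, the nearest to its start among bound members. The summit of rps-14, whose protein lies on the platform, had 52.2 pooled, 24.8 and 25.4, at 270 bp. For rps-26, at the messenger RNA exit, the signal was 47.0 pooled, 31.2 in replicate 1 and 12.2 in replicate 2, at 431 bp.

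Over the pooled summits, the median signal was 88.4 in head genes and 53.1 in body genes. Over bound genes alone it was 130 and 73.9. The ranges of the 2 classes overlapped almost entirely, and 9 of 14 and 11 of 18 bound are similar shares.

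Among the 12 members without an IDR summit, most had a pooled signal not far below the IDR list's limit. The lowest IDR signal was 45.6, and rps-11 and rps-29 had pooled signals of 44.8 and 44.2, against 46.8 and 47.0 for rps-17 and rps-26 on the other side. Of the 11 with a pooled summit, 8 had a signal of 30 or more, against 20.8% of the 5591 protein-coding genes with a pooled but no IDR summit, and the median was 36.9. The 8 were rps-9 with 42.2, rps-27A, made in the worm as a fusion with a ubiquitin-like protein, with 40.2, rps-2 with 37.7, rps-8 with 36.9, rps-27 with 36.1 and rps-25 with 32.1, besides rps-11 and rps-29. Some of the 8 summits also lay in the start window of an opposite-strand neighbour. That of rps-29, 468 bp upstream of rps-29, was 99 bp upstream of snt-2. That of rps-27, at 575 bp, was 173 bp upstream of picd-1. That of rps-9, at 236 bp, was 352 bp upstream of lsm-1. In replicate 1 the strongest-peak list still held rps-11, rps-29 and rps-9, at 26.9, 36.0 and 25.6. Replicate 2 had them at 16.4, 13.7 and 16.6 and held none of the 12 in its strongest list.

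Lower still were rps-5, rps-6 and rps-7. For rps-5 the signal was 25.2 pooled, 17.4 in replicate 1 and 6.87 in replicate 2. For rps-6, the substrate of S6 kinase, it was 12.2 pooled, at 88 bp upstream. Replicate 2 had 8.43 near there, at 100 bp. Replicate 1 had 9.25 at 409 bp, near a second pooled summit of 11.6 at 411 bp. For rps-7 the signal was 11.4 pooled and 8.54 in replicate 1, and replicate 2's list had no summit in the window. The lone gene without a summit in any list was rps-16, which lies 110 bp downstream of fib-1 on the same strand. The gene upstream, fib-1, encodes fibrillarin, the methyltransferase of the nucleolus. It had a pooled summit of 58.9 at 88 bp upstream, which also lay in the start window of mut-15, at 232 bp.

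Genes of the large subunit gave shares like those of the small subunit: 34 of 52 (65.4%) were bound and 47 of 52 (90.4%) had a pooled summit. Their strongest, rpl-15 and rpl-3, had pooled signals of 454 and 410, above every small-subunit gene. Of 28 genes for the small subunit of the mitochondrial ribosome, 3 (10.7%) were bound, a share near the 10.9% of all protein-coding genes, with mrps-7 at 117 and mrps-31 at 54.7. Of 11 subunits of initiation factor 3, which binds the small subunit before it meets messenger RNA, 5 (45.5%) were bound, led by eif-3.C at 121 and eif-3.E at 78.2. Over bound genes the median signal was 86.2 for the small subunit, 72.6 for the large subunit and 76.9 for all protein-coding genes. Over pooled summits it was 58.8, 62.9 and 24.98. The medians over bound genes all lie above the same floor of 45.6, which draws them together.

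**Figure D2:**
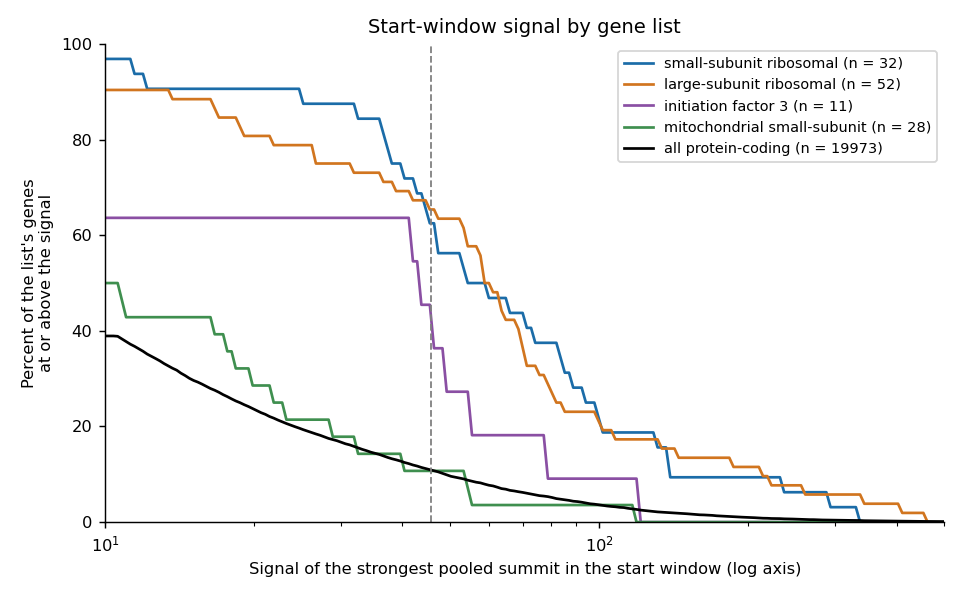
Percent of genes (vertical axis) whose strongest pooled summit in the start window reached the signal on the horizontal axis (log axis), for each gene list and for all protein-coding genes, with genes without a summit kept in the denominator. At the lowest IDR signal (dashed line) the small- and large-subunit curves stand at 62.5% and 65.4%, and the mitochondrial curve lies at 10.7% beside 10.9% for all genes.

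Summits at small-subunit genes lay in a narrow band upstream of the start. In all 31 members with a pooled summit the strongest one was upstream, from 88 to 575 bp. The median was 290 bp and the interquartile range 90.5 bp. Over all protein-coding genes with a pooled summit the median was 262 bp upstream and the interquartile range 427 bp. Of the members, 16 of 31 (51.6%) had the summit 250 to 350 bp upstream, against 12.4% of all such genes. Large-subunit genes had a median of 298 bp and an interquartile range of 138.5 bp, and mitochondrial small-subunit genes a median of 156.5 bp. The band was as narrow in each replicate, with interquartile ranges of 101 bp in replicate 1 and 93.8 bp in replicate 2.

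**Figure D3:**
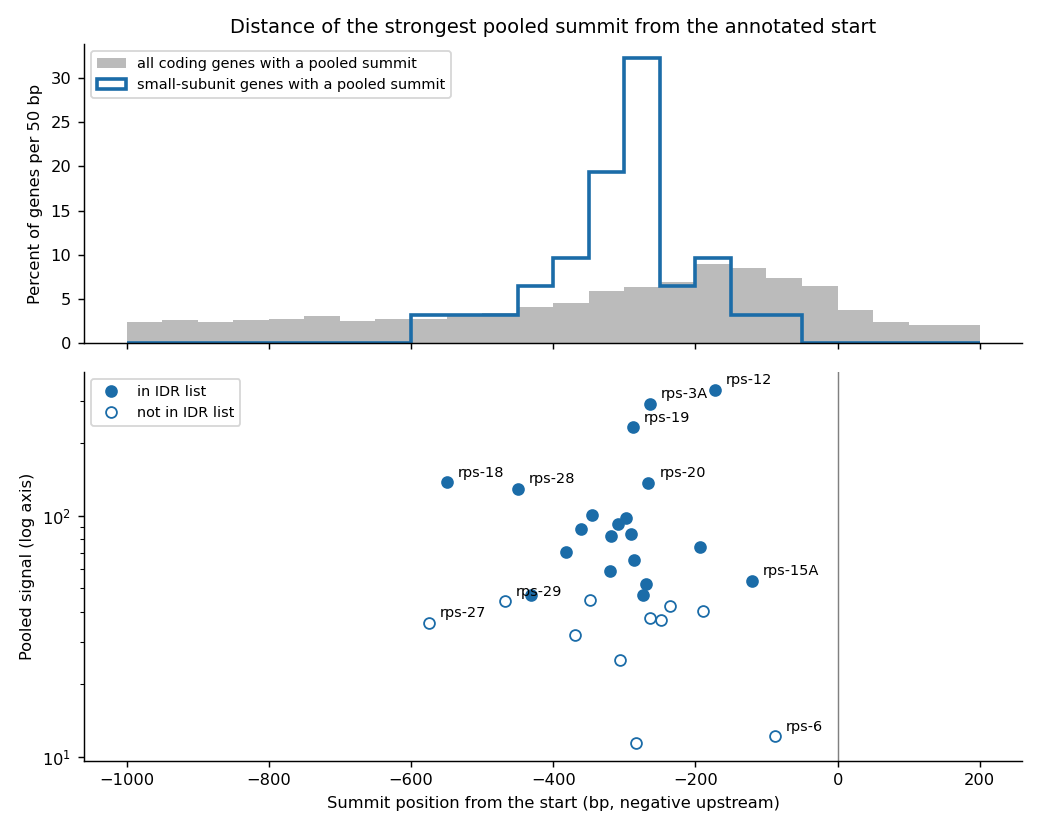
Position of the strongest pooled summit from the annotated start (bp, negative upstream). Top, percent of genes per 50 bp for the 31 small-subunit genes (line) and all protein-coding genes with a summit (grey); bottom, pooled signal (log axis) of each member, filled where bound, with 16 of the 31 between 250 and 350 bp upstream.

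Most of these summits lay between 2 genes that run apart. Of the 20 bound members, 16 (80.0%) had the summit inside the start window of another protein-coding gene too, against 37.4% of 2185 bound protein-coding genes, and in 15 the other gene was on the opposite strand. In 3 the partner was a large-subunit gene: rps-10 with rpl-24, rps-14 with rpl-36, and fau-1 with rpl-39. The rps-10 summit lay 382 bp upstream of rps-10 and 228 bp upstream of rpl-24. For rps-14 and rpl-36 the distances were 270 and 393 bp, and ndab-2 lay 894 bp away on the same side as rpl-36. For fau-1 and rpl-39 they were 290 and 209 bp. A peak there counts for both subunits.

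The other partners were not ribosomal protein genes. The summit of rps-12 lay 120 bp upstream of ska-3, that of rps-19 157 bp upstream of hsr-9, and that of rps-20 131 bp upstream of ekl-4. The summit of rpsa-1 was 64 bp from rbg-3 and that of rps-26 was 26 bp from tmem-107. For rps-23, rps-3 and rps-13 the partners were dpm-3 at 236 bp, sna-3 at 246 bp and nfx-1 at 189 bp. The summit of rps-18 lay 134 bp downstream of the start of sec-61.A, which encodes the protein-conducting channel of the endoplasmic reticulum. In all of these the partner's start was nearer than the member's. It was farther for rps-3A with ifet-1 (504 bp), rps-15 with F36A2.9 (420.0 bp), rps-15A with polh-1 (145 bp), rps-14, and rps-28 with Y41D4B.4, which is on the same strand at 868 bp. The bound members rps-4, rps-17, rps-21 and rps-24 shared their summits with no other protein-coding gene.

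Giving each IDR peak only to its nearest start therefore removed much of the set. It left 9 of 32 members (28.1%), against 8.83% of all protein-coding genes, and 11 of the 20 bound members lost the peak to a nearer start. Bound members kept a peak in 45.0% of cases, against 80.7% of bound protein-coding genes. The 3 strongest summits split: rps-3A kept its peak, while rps-12 and rps-19 lost theirs to ska-3 and hsr-9.

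The arrangement itself was common among the members. The nearest upstream protein-coding neighbour was on the opposite strand for 23 of 32 (71.9%), against 46.3% of all protein-coding genes, and the median gap to it was 533.5 bp against 939 bp. Of the 19 members with an opposite-strand neighbour within 1000 bp, 15 were bound, where 16.6% of all protein-coding genes so arranged were. Of the other 13 members, 5 were bound, against 9.42% of such genes. The median pooled signal was 84.0 over all 19 and 92.3 over the 15 bound. In the other arrangement it was 42.5 over the 12 with a pooled summit and 65.5 over the 5 bound. Which gene of such a pair the signal belongs to cannot be told apart from peak positions. The members lie on 5 chromosomes, with 6 of 8 bound on I, 0 of 1 on II, 8 of 10 on III, 5 of 10 on IV and 1 of 3 on V. The shares of all protein-coding genes bound on these chromosomes were 11.3%, 10.3%, 13.3%, 9.78% and 8.37%.

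The replicates ranked the members alike but not evenly. Over the 30 members with a summit in both lists, replicate 1's signal over replicate 2's, on the log2 scale, ran from −0.64 to 1.93, with a median of 0.14 and an SD over genes of 0.61. Over 5728 protein-coding genes the median was 0.08 and the SD 0.65. The ratio of the strongest summits passed 1 in 6 members, all toward replicate 1: rps-21 (1.93), rps-29 (1.39), rps-26 (1.36), rps-5 (1.34), rps-24 (1.03) and rps-17 (1.01). For rps-24 the 2 summits lay 213 bp apart, so its ratio compares different sites. At the site that both replicates listed, the rps-24 values were 39.7 and 23.3. None passed −1. Of those 6, 4 were bound through the IDR list although their peaks were outside replicate 2's strongest list. As a description across genes, which are not independent replicates and share both libraries, Spearman's rho was 0.83 over the 30 members and 0.77 over all. The summits fell a median of 22 bp apart between replicates, against 53 bp over all genes, and 25 of 30 were within 50 bp. The widest, 309 bp, was at rps-6.

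**Figure D4:**
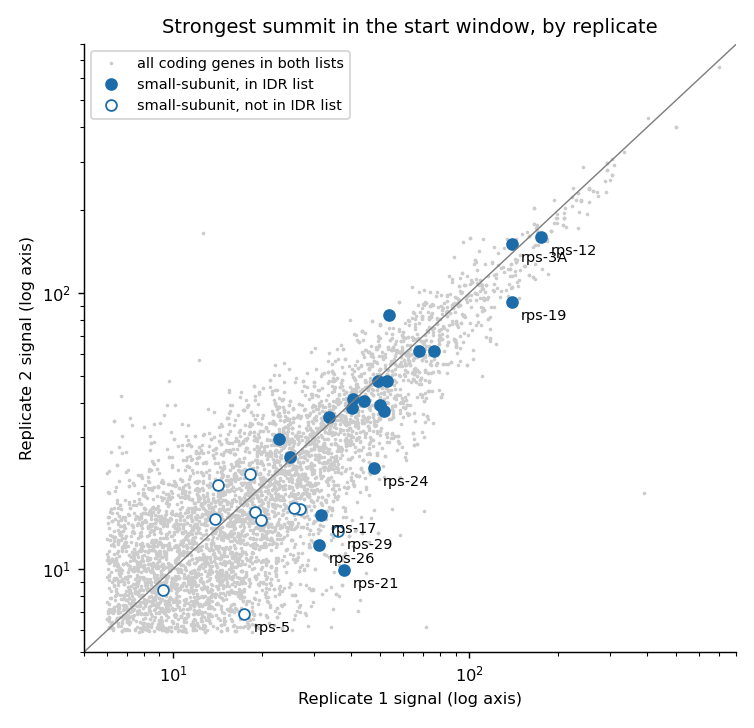
Signal of the strongest summit in the start window in replicate 1 (horizontal) against replicate 2 (vertical), both on log axes, for small-subunit genes (circles, filled where bound) and all protein-coding genes with a summit in both lists (grey). The line marks equal signal; the 6 members past 1 log2 unit, rps-21 with 1.93 among them, all lie on the replicate 1 side.

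Sequence under the summits was read for the E-box CACGTG, for GAGAGA, the repeat of GAGA factors in Drosophila, and for AGACGCAG, each on both strands. A match is a description of the letters and shows no occupancy. Within 100 bp of the strongest summit, 0 of 20 bound members held CACGTG, which allows a share of up to 16.8% (exact Clopper-Pearson 95% interval, counting error only). The share was 18.4% of all 4293 IDR peaks and 16.4% of the 1844 IDR peaks in start windows, so the interval reaches the second of these and the shortfall is not resolved at 20 genes. None of the 32 members held CACGTG in the 500 bp upstream of the start, against 8.61% of all protein-coding genes. No interval was computed for that count, so it is not read as a shortfall. Somewhere in the start window 6 members (18.8%) held CACGTG, against 18.4%. GAGAGA was within 100 bp in 2 of 20 bound members, against 40.3% of IDR peaks in start windows, and in 6 of the 11 with a weaker summit. AGACGCAG was in 0 of 20, against 15.6%, and in 2 of the 11. Its interval for the 20 also reaches 16.8%, so that shortfall is not resolved either.

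The E-boxes nearest to summits were at rps-29, 32.5 bp from a pooled summit that missed the IDR list, and at rps-28, 111.5 bp from its IDR summit. They are shown with 12 bp to either side, toward the gene, with CACGTG in capitals.
rps-29 (III:793785-793814, plus strand): gcgactttgacaCACGTGaaacgagtgtga
rps-28 (IV:1659116-1659145, plus strand): aaagccggaagtCACGTGaaaaggcgactg

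Reading the members' sequences side by side brought out words that were then counted in all windows. They were chosen after the sequences were seen, in the same genes, so their shares among the members carry no weight as a test. CGCAGC, on either strand, was within 100 bp of the summit in 9 of 20 bound members (45.0%), against 7.86% of IDR peaks in start windows. With the weaker summits included it was in 12 of 31 members. Of its 17 occurrences there, 15 had their centre on the gene's side of the summit. In rps-21 a pair overlaps as the palindrome GCTGCGCAGC. GGCCTA was within 100 bp in 5 of the 20 bound members, against 4.77% of IDR peaks in start windows. It was in 8 of the 11 weaker members and so in 13 of 31. No share over all pooled summits is given here to set beside the counts that include weaker summits.

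The longer words were rarer. The 13-base element TGAGTAT, any base, then CAACG occurred 26 times in the genome and in the start windows of 21 of 19973 protein-coding genes (0.105%). Of those 21, 11 were cytosolic ribosomal protein genes, 6 of them of the small subunit: rps-3, rps-20, rpsa-1, rps-15A, rps-24 and fau-1. All 6 were bound, as were 17 of the 21 genes with the element. In all 6 the element read in the gene's own direction, and its centre lay 25 to 65 bp from the summit on the gene's side. Over the genome 12 of the 26 occurrences were within 100 bp of an IDR summit. Of these 12, 9 lay in start windows of cytosolic ribosomal protein genes. The 21 genes hold only 13 sites, 10 of them in ribosomal protein gene windows, so neighbouring genes share sites. The 17 bound genes are therefore not 17 separate sites, and most sites are those of the ribosomal protein genes. The site between fau-1 and rpl-39, for example, is 1 occurrence counted for both genes. Copies are shown with 4 bp to either side and the element in capitals, from 4 small-subunit genes and 2 of the large subunit, to show how alike they are.
rpsa-1 (III:4754317-4754337, minus strand): tgacTGAGTATTCAACGttta
rps-15A (III:1950429-1950449, plus strand): tggcTGAGTATTCAACGttaa
rps-24 (IV:385627-385647, plus strand): cgaaTGAGTATCCAACGctta
fau-1 (V:7776342-7776362, plus strand): tgccTGAGTATTCAACGttaa
rpl-32 (II:9057436-9057456, plus strand): tggcTGAGTATTCAACGtttt
rpl-7A (IV:4390627-4390647, plus strand): tgacTGAGTATTCAACGtttg

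The 12-base element AGTGT, any base, then ACCGTA occurred 52 times in the genome and in the windows of 56 protein-coding genes (0.280%), a site between 2 genes counting for each. Of those 56, 17 were cytosolic ribosomal protein genes, and 7 were of the small subunit: rps-7, rps-10, rps-13, rps-17, rps-18, rps-23 and rps-29. Of these 7, 5 were bound, and rps-7 and rps-29 were not, beside 33 of the 56 genes with the element. The 56 genes hold 35 sites, 16 of them in ribosomal protein gene windows. Over the genome 19 of the 52 occurrences were within 100 bp of an IDR summit, and 11 of these were in ribosomal protein gene windows. The centre lay 14.5 to 102.5 bp from the summit, on the gene's side in 5 of 7, and it read in the gene's direction in 5. No member held both elements, and 13 of 32 held one. Within 100 bp of the strongest summit, 10 of the 20 bound members held one of them, against 1.03% of IDR peaks in start windows for the 12-base element and 0.597% for the 13-base element. Copies are again shown with 4 bp to either side, each on the strand that reads the element forward.
rps-13 (III:6375157-6375176, minus strand): aacgAGTGTTACCGTAtaca
rps-18 (IV:14825018-14825037, plus strand): aacgAGTGTTACCGTAcctt
rps-23 (IV:12391297-12391316, plus strand): aacgAGTGTTACCGTAcctc
rps-29 (III:793804-793823, plus strand): aacgAGTGTGACCGTAcccg
rpl-21 (III:8130514-8130533, minus strand): aacgAGTGTTACCGTActgt
rpl-22 (II:5055384-5055403, plus strand): aacgAGTGTGACCGTAgtta
rpl-6 (III:7208074-7208093, plus strand): aacgAGTGTCACCGTAgtca
rpl-38 (V:15511818-15511837, plus strand): aacaAGTGTAACCGTAcccc

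In every copy shown but that of rpl-38 the 4 bases before the 12-base element were aacg.

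**Figure D5:**
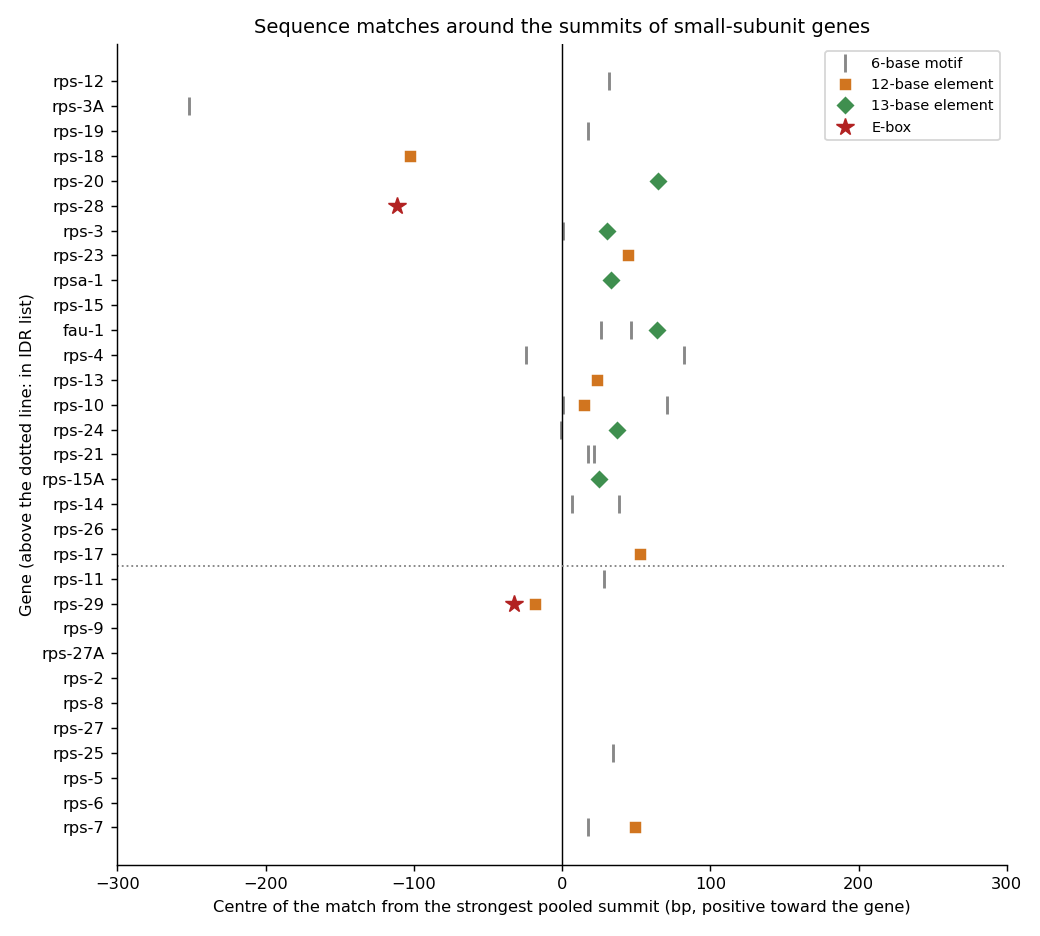
Centre of each match (bp from the strongest pooled summit, positive toward the gene) for 31 small-subunit genes in order of pooled signal, strongest at the top. Grey bars are the 6-base motif CGCAGC, squares the 12-base element, diamonds the 13-base element and stars the E-box; the 6 diamonds all lie 25 to 65 bp on the gene's side.

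At the start itself the sequence was read for TTTCAG, the consensus of splice acceptors in the worm, which also serve trans-splicing, the step that joins a common leader to most worm messenger RNAs. The last 6 bases before the annotated start were TTTCAG in 15 of 32 (46.9%), against 12.3% of all protein-coding genes, and the last 2 were AG in 28 (87.5%), against 27.6%. The large-subunit genes had TTTCAG in 26 of 52 (50%). Where a messenger RNA is trans-spliced at the annotated start, transcription begins upstream of it, and the summit distances above are all to the annotated start. TATAAA on the gene's strand was in the start windows of 12 members (37.5%), against 58.9%. Which starts are trans-spliced was not tested. The last 24 bases before the starts of rps-12 and rps-3 are shown with TTTCAG in capitals.
rps-12 (III:5679274-5679297, plus strand): cgagtcgaaatttctaatTTTCAG
rps-3 (III:6206779-6206802, plus strand): taatattaatattcaaatTTTCAG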

How the data were processed

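Transcription factor ChIP-seq peak lists from 2 biological replicates of 1 group were analysed. The members and gene lists were chosen with earlier results of these data known. The 4 lists on build ce11 (WBcel235) were used: 1 for each replicate, 1 pooled, and the IDR list, which the authors derived from these per the deposited file descriptions. The ce10 copies were not used here. The deposited signal value of each peak is the caller's own, with its scale not given in the sources used here. Each deposited −log10 q value of a peak was read too; it reached the list's top value of 3.80 at 16 of 20 bound members and was not used further. The IDR threshold, caller and aligner are likewise unnamed in those sources. No list holds read counts, so depth is unknown and no counting error can be given for a signal. The labels call the replicates biological and do not say whether they were separate cultures.

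Gene positions came from Ensembl release 115, and symbols and sequence from RefSeq. The strongest summit from 1000 bp upstream to 200 bp downstream of each protein-coding gene's outermost start was taken, in Python 3.11.15 with pandas 2.3.3, numpy 2.4.6 and scipy 1.17.1, and plotted with matplotlib 3.10.9. A sequence match counts within 100 bp of a summit only if all of its bases are. Counts and medians are set beside those of all 19973 protein-coding genes, with no test. The window assignment and motif search were tested on simulated data. Full values are given for every bound member and up to 2 of the strongest genes of each other list. Neighbours are given where they share a bound member's IDR summit, and some where they share a weaker member's pooled summit. The fib-1 and mut-15 genes and the shorter words and longer elements found by reading the members' sequences were chosen after the data were seen. Alternatives covered list, threshold, window, start, symbol source, motif window, nearest-start rule and each replicate alone.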

Additional observations from a re-analysis of the deposited data

How the results depend on the processing

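Of 29 alternatives, 22 left the value close to that reported and 7 moved it. The count of 20 bound small-subunit genes became 31 with the pooled list and 12 with only IDR peaks at or above the median IDR signal. Those 2 settings use more or fewer peaks by construction. When genes within 500 bp of an upstream gene were left out, 10 of 19 were bound, beside 20 of 32 in all. Whether the near neighbours account for the difference in share was not tested. From each replicate's strongest peaks alone the count ran from 16 to 22. The count by nearest start ran from 6 to 10 in the same way, and was 7 when starts of non-coding genes competed. The median signal of 86.2 became 65.5 over the 9 genes given the peak by nearest start, and the cause was not tested. The median distance of −294 bp became −290 bp with the pooled list, a shift of a few bases that exceeds only the small difference between replicates. The count of 0 bound members with CACGTG within 100 bp became 1 within 200 bp and 3 anywhere in the start window. No paired analysis was possible because there is 1 group and no comparison between groups. With no read counts in the lists, the precision of single signals is limited to the spread between 2 replicates.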
